A study of Mus musculus with 15 samples.

Results

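The 10 listed genes of neutrophil, promyelocyte, monocyte and eosinophil granules were followed through sorted haematopoietic stem cells (HSC) of young, aged and nicotinamide riboside (NR)-treated aged mice. They were the primary granule genes Mpo, Elane and Prtn3, the secondary granule genes Ltf, Camp and Ngp, the calprotectin genes S100a8 and S100a9, the eosinophil granule gene Prg2 and the monocyte surface gene Ly6c2. The genes were selected on their names and on their presence in the deposited filtered count table, with earlier results on these libraries known. All 10 of the 10 listed genes were present among 16154 genes. Presence in that table required a count above 5 and a level above 2 CPM for at least 2 of the libraries (CPM, the count of a gene scaled to a common library size), so every gene had to be measurable somewhere. The sparsest was Ltf, which met that limit in 2 young, 5 aged and 1 NR-treated libraries.

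HSC came from C57BL/6 mice labelled female, with 5 libraries per group and 1 mouse per library. Young mice were 6 to 12 weeks old and aged mice 20 to 24 months old, and neither group was given NR. The NR-treated aged group received NR, a vitamin B3 form that cells convert to NAD, at 3 mg/ml in drinking water for 2 months. Each library was a 3′ biased RNA count of 20000 to 25000 cells sorted as lineage negative, Sca-1 positive, cKit positive, CD150 positive and CD48 negative, after depletion of cells carrying B220, Mac-1, Gr-1 or Ter119.

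Granulocytes fill their granules in waves as they mature. Promyelocytes make the primary (azurophil) granules, which carry myeloperoxidase and serine proteases, and myelocytes and metamyelocytes then make the secondary (specific) granules, which carry lactoferrin and antimicrobial peptides. Calprotectin is the abundant cytosolic S100A8 and S100A9 complex of neutrophils and monocytes. HSC stand far upstream of these cells, and most granule genes are used here as markers of more mature myeloid cells.

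Library totals ran from 764119 to 13318989 counts, with medians of 2685764 in young, 6007460 in aged and 3162434 in NR-treated libraries. The 10 genes together took 0.0230% to 0.785% of a young library, 0.200% to 0.287% of an aged library and 0.0284% to 0.0578% of an NR-treated library. Young replicate 3 stood apart at 0.785%, and the next young library, replicate 4, held 0.125%. The shallowest library, aged replicate 2, held 0.241%, the median of its group. Young replicates 1 and 5 went against their label, since Y-linked transcripts summed to 104 and 108 CPM there and to at most 3.16 CPM in every other library. Of the markers that define HSC, Kit was at 284 CPM or more in every library, Mecom at 197 or more, Procr at 47.5 or more and Slamf1, which encodes CD150, at 30.5 or more. For these HSC markers and all CPM values below, library sizes were scaled by the trimmed mean of M values (TMM). Bounds for counts of 0 are the exception.

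Several of the genes are neighbours in the genome (GRCm38, GENCODE annotation). Prtn3 (chr10:79874476-79883174, plus strand) ends 3073 bases before Elane (chr10:79886247-79888215, plus strand), and Mpo lies at chr11:87793581-87804413 on the plus strand. The 3 secondary granule genes share chromosome 9: Camp at 109847379 to 109849617 on the minus strand, Ngp at 110419747 to 110423012 and Ltf at 111019271 to 111042767 on the plus strand. S100a8 (chr3:90668978-90670035, plus strand) and S100a9 (chr3:90692632-90695721, minus strand) lie 22597 bases apart. Prg2 is at chr2:84980461-84983632 on the plus strand and Ly6c2 at chr15:75108158-75111970 on the minus strand. Exons of Prtn3 overlap exons of Plppr3 on the opposite strand, and exons of Mpo overlap those of Gm11505. How the counting treated strand is not given in the sources used here, so counts of those overlapping exons are uncertain. Ly6c2 has a near-identical paralog, Ly6c1, and reads shared by them may have been dropped or misplaced.

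RefSeq start-site windows (GRCm38.p6, 250 bases before to 50 bases after the start) were matched for 9 of the 10 genes, without Prg2. They were searched on both strands for the core letters bound by PU.1 (GAGGAAG), C/EBP factors (TTGCNNAA) and RUNX factors (TGTGGT), the families known to act on granule genes. The primary granule windows are shown first because the primary and secondary classes are compared throughout. Capitals mark a match to any of the 3 motifs on either strand. Mpo (chr11:87793534-87793833), Elane (chr10:79886062-79886361) and Prtn3 (chr10:79879417-79879716) all read on the plus strand.
Mpo: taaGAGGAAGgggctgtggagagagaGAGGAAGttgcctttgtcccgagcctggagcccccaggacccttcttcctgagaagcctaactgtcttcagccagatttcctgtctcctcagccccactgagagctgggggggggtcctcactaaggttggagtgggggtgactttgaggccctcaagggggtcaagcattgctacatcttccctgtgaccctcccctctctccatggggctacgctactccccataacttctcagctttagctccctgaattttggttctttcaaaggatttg
Elane: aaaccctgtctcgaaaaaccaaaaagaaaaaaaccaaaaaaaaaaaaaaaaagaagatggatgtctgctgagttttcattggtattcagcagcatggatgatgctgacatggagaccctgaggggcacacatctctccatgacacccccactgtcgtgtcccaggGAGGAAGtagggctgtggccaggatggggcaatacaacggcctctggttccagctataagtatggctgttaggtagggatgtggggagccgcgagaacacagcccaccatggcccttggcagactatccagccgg
Prtn3: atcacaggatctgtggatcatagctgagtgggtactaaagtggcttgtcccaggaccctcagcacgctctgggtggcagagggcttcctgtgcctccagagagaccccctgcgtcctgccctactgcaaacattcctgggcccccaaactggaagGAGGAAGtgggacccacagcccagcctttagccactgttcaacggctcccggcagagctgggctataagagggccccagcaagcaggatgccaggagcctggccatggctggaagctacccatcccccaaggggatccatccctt

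The secondary granule windows shown are those of Ltf (chr9:111019042-111019341) and Ngp (chr9:110419558-110419857), also on the plus strand.
Ltf: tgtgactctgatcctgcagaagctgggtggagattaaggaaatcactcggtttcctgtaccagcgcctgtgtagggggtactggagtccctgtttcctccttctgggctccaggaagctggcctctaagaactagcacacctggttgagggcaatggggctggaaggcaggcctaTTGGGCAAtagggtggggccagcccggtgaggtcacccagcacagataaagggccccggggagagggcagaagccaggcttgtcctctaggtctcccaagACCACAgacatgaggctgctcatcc
Ngp: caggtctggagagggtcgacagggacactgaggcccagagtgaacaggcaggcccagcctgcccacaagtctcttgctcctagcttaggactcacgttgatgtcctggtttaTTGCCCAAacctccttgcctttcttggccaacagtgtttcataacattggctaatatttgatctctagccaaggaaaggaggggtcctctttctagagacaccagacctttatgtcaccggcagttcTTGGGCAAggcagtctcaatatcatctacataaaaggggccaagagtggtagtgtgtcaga

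The PU.1 letters occurred in the windows of 5 of the 9 genes and in 13.6% of all 32851 RefSeq windows. Their first base stood at -247 and -224 from the start site in Mpo, at -85 in Elane and at -95 in Prtn3, and were also in the windows of S100a8 and Ly6c2. The C/EBP letters occurred for 3 of the 9 genes and in 10.8% of all windows, at -75 in Ltf and at -138 and -11 in Ngp, and also in S100a9. The RUNX letters occurred in Ltf, S100a9 and Ly6c2, 3 of the 9 genes, and in 16.8% of all windows. All 3 primary granule windows thus held the PU.1 letters and none the C/EBP letters, whereas Ltf and Ngp held the C/EBP letters and not the PU.1 letters. Camp held none of the 3. The RefSeq start of Prtn3 lies inside the GENCODE gene rather than at its first base, and the window shown is that of RefSeq. These matches describe letters and not binding.

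**Figure D1:**
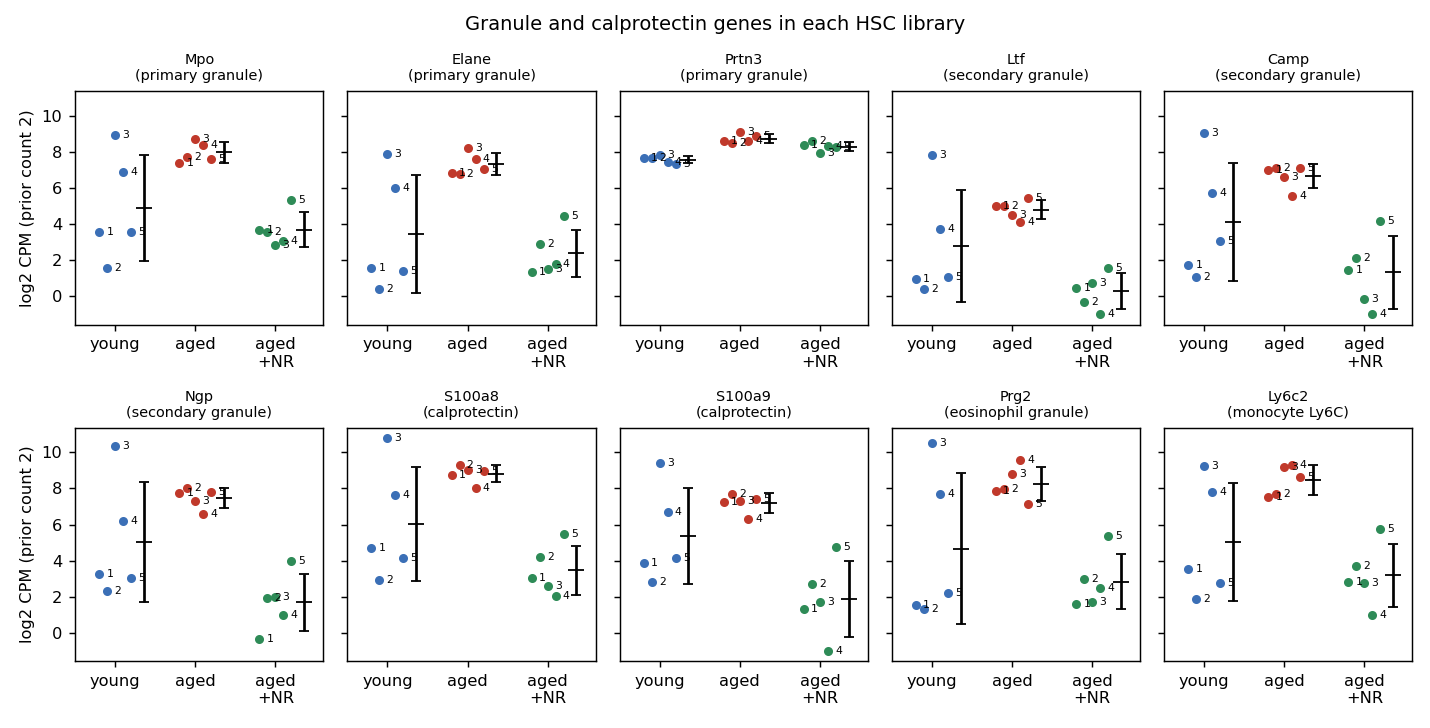
Level of each gene in each library as log2 CPM with a prior count of 2; points are libraries numbered by replicate, and black bars show the mean and SD of the 5 libraries. For 9 genes all 5 aged libraries sit above all 5 NR-treated libraries and young replicate 3 is the highest young library, while Prtn3 stays between 157 and 537 CPM throughout.

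Of the primary granule genes, Mpo encodes myeloperoxidase, the haem enzyme of azurophil granules. Mpo was measured at 11.2, 2.41, 481, 115 and 11.3 CPM in young replicates 1 to 5. Aged libraries gave 168, 211, 419, 336 and 190.4 CPM, and NR-treated libraries 12.1, 11.03, 6.61, 7.67 and 39.2 CPM. Every aged library was thus above every NR-treated library, and the young libraries spanned the range of both groups. In these bulk libraries, fewer cells of a type and less RNA per cell cannot be told apart.

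Elane, which encodes neutrophil elastase, followed the same course. Its young values were 2.46, 0.804, 235, 62.8 and 2.16 CPM. Its aged values were 113, 110.3, 298, 195 and 131 CPM, against 1.98, 6.86, 2.33, 2.92 and 21.2 CPM after NR. Aged and NR-treated libraries did not overlap, and young replicate 3 lay within the aged range, replicate 4 below it and replicates 1, 2 and 5 at 2.46 CPM or less.

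Prtn3 encodes proteinase 3, another azurophil protease, and behaved differently from its neighbour Elane. Young libraries held 198, 202, 223, 173 and 157 CPM. Aged libraries held 394, 358, 537, 383.7 and 461 CPM, and NR-treated libraries 329.7, 384.3, 243, 313 and 304 CPM. Prtn3 was well detected in every library, and young replicate 3, where Mpo and Elane were highest in the group, was only slightly above the other young libraries. The young libraries overlapped with neither other group, while NR-treated replicate 2 lay above aged replicates 2 and 4. The order of Prtn3 means was 191 ± 25.9 CPM in young, 315 ± 50.6 in NR-treated and 427 ± 72.3 in aged libraries (SD, n = 5 each).

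Of the secondary granule genes, Ltf encodes lactoferrin, the iron-binding protein of specific granules, and was the most sparsely counted of the 10 after NR. Ltf stood at 1.40, 0.804, 222, 12.7 and 1.62 CPM in young libraries. It stood at 31.6, 31.1, 21.6, 16.5 and 42.6 CPM in aged and at 0.847, 0.298, 1.17, 0 and 2.45 CPM in NR-treated libraries. The NR-treated values rested on 0 to 9 counts, with 3 or fewer in 4 of the 5 libraries, so those levels were close to the limit of detection. A count of 0 in NR-treated replicate 4 allows up to 1.14 CPM without TMM scaling. This bound covers counting error only, and it also holds there for Camp and S100a9.

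Camp encodes cathelicidin, the antimicrobial peptide stored in specific granules. Its values were 2.81, 1.61, 520.0, 52.6 and 7.82 CPM in young libraries. They were 125, 139, 95.1, 45.9 and 136 CPM in aged and 2.26, 3.88, 0.389, 0 and 17.4 CPM in NR-treated libraries. Aged libraries were again all above NR-treated libraries, and young replicate 3 exceeded every aged library.

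Ngp encodes neutrophilic granule protein, a cystatin-related protein of the same granules. Young libraries gave 9.12, 4.42, 1309, 74.0 and 7.82 CPM. Aged libraries gave 213, 256, 157, 96.5 and 224 CPM, and NR-treated libraries 0.282, 3.28, 3.50, 1.46 and 14.98 CPM. The aged and NR-treated ranges were separate, and Ngp in young replicate 3 was above all aged libraries.

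The calprotectin genes encode the partners of the S100A8 and S100A9 complex. S100a8 gave 25.6, 7.23, 1762, 196 and 17.3 CPM in young, 423, 628, 512, 263 and 494 CPM in aged and 7.63, 17.6, 5.44, 3.65 and 43.8 CPM in NR-treated libraries. S100a9 gave 14.0, 6.43, 674, 104 and 17.0 CPM in young, 154, 208, 157, 77.5 and 171 CPM in aged and 1.98, 5.96, 2.72, 0 and 27.0 CPM in NR-treated libraries. For each gene the aged and NR-treated libraries did not overlap, and young replicate 3 was the highest of all 15. The S100a8 share of calprotectin counts was 73.4% to 77.2% in the aged group, above the young group at 50.4% to 72.3%. Young replicates 1, 2 and 5 held only 73, 18 and 64 counts of S100a8 and 40, 16 and 63 of S100a9. Young replicate 3, with 3923 and 1502 counts, gave the 72.3%. In NR-treated libraries the share ran from 61.9% to 100%, where replicate 4 held 10 counts of S100a8 and none of S100a9. These are shares of 3′ counts and not of molecules corrected for length.

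Prg2 encodes the major basic protein of eosinophil granules. Prg2 was at 2.46, 2.01, 1447, 203 and 4.05 CPM in young libraries. It was at 229, 250.4, 454, 756 and 140.2 CPM in aged and at 2.54, 7.45, 2.72, 5.11 and 41.4 CPM in NR-treated libraries. Aged replicates 3 and 4 were the highest of their group, as they were for Mpo and Elane.

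Ly6c2 encodes a Ly6C antigen of monocytes, which the Gr-1 antibody can also bind. Ly6c2 was at 11.2, 3.21, 605, 224 and 6.20 CPM in young libraries. It was at 184, 202, 585, 628 and 397 CPM in aged and at 6.50, 12.5, 6.22, 1.46 and 54.2 CPM in NR-treated libraries. Aged replicates 3 and 4 were again highest, and no NR-treated library reached the lowest aged library.

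**Figure D2:**
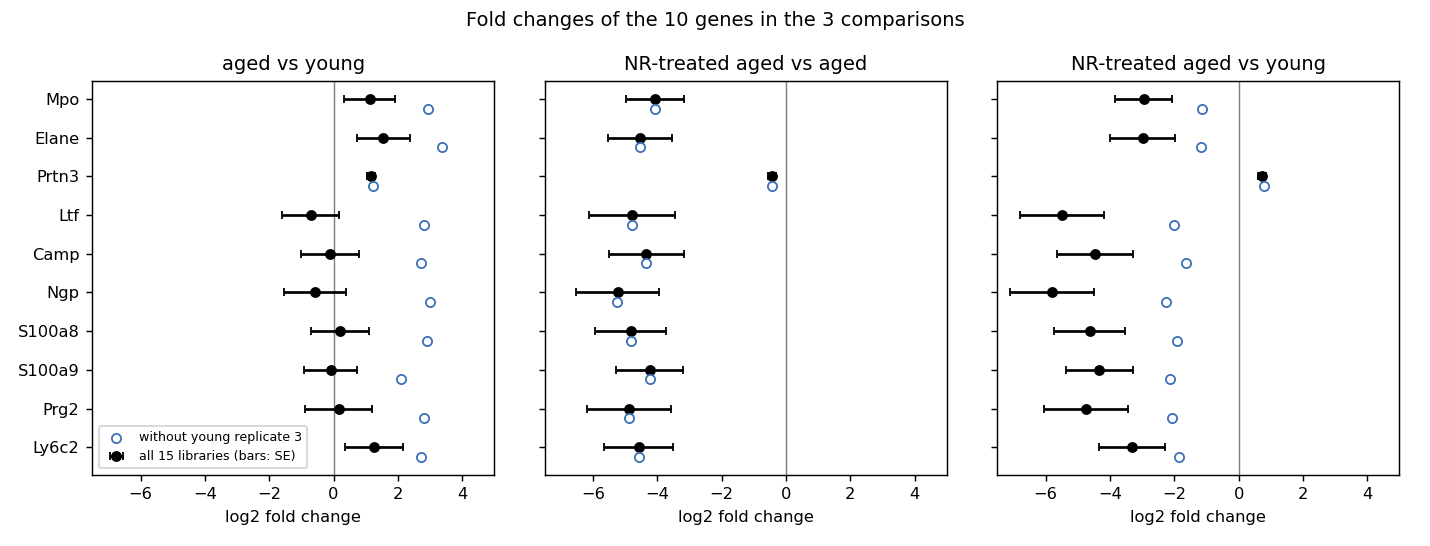
Log2 fold change of each gene in the 3 comparisons; black points are fits on all 15 libraries with bars of 1 SE, and open blue points are fits without young replicate 3. In NR-treated aged against aged mice 9 genes lie between -5.24 and -4.08 and Prtn3 at -0.44, and leaving out young replicate 3 moves mainly the comparisons with young mice.

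NR-treated aged against aged mice asks whether NR shifted the aged profile. All 10 genes were lower after NR at an adjusted p under 0.05 (edgeR quasi-likelihood test, Benjamini-Hochberg adjustment over the whole table), where 4.18% of all genes were called lower. For 9 of the 10 genes every NR-treated library lay below every aged library, which held for 4.95% of all genes. Prtn3 was the exception. The median log2 fold change of the 10 genes was -4.55, against 0.02 over all genes. Since the genes were chosen with such results known, these counts are a description and not independent evidence.

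Among primary granule genes, Mpo changed by -4.08 on the log2 scale (SE 0.91, 16.9-fold lower, adjusted p = 0.0126, edgeR quasi-likelihood) and Elane by -4.53 (SE 0.996, 23.04-fold lower, adjusted p = 0.0117). Prtn3 changed by only -0.44 (SE 0.13, 1.36-fold lower, adjusted p = 0.0470). The secondary granule genes changed by -4.78 for Ltf, -4.35 for Camp and -5.24 for Ngp, with SE of 1.33, 1.17 and 1.29 and adjusted p of 0.0337, 0.0291 and 0.0198 in the edgeR test. Ngp, at 37.7-fold, had the largest fall of the 10. S100a8 changed by -4.83 and S100a9 by -4.24, with adjusted p of 0.0146 and 0.0194 from edgeR. Prg2 changed by -4.89 and Ly6c2 by -4.58, with adjusted p of 0.0284 and 0.0156 from edgeR.

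The direction of each gene was the same in 25 of 25 alternative fits, but the number of calls fell when some libraries were left out, as it did over the whole table. When 1 library was left out at a time, Mpo, Elane, S100a8 and Ly6c2 were called lower in 15 of 15 fits. Ngp and S100a9 were called in 13, Ltf, Camp and Prg2 in 9 and Prtn3 in 6 of these fits. Without NR-treated replicate 3 or 4, 4 genes were called lower, where 1.78% and 1.85% of all genes were. Without aged replicate 3 or NR-treated replicate 1, 6 genes were called lower, where 1.54% and 3.39% of all genes were. Without young replicate 3 all 10 were called, where 5.03% of all genes were called lower.

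Aged against young mice asks what changed with age. Only Prtn3 was called higher, 1 of the 10 genes, where 9.68% of all genes were called higher. Prtn3 rose by 1.17 on the log2 scale (SE 0.14, 2.25-fold, adjusted p = 7.07e-06, edgeR quasi-likelihood), with every aged library above every young library, and it was called in all 15 fits that left out 1 library. Elane gave 1.54 (SE 0.83), Ly6c2 1.26 (SE 0.90) and Mpo 1.12 (SE 0.78) without passing the test, with adjusted p of 0.201, 0.349 and 0.337 from edgeR. Ltf, Camp, Ngp and S100a9 gave negative values, -0.71, -0.11, -0.58 and -0.09, also without passing.

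This comparison changed with young replicate 3 and with the method. Without that library, all 10 genes were called higher in aged mice, where 9.27% of all genes were called higher. The median log2 fold change of the 10 genes was 0.18 with it and 2.80 without it. Elane then gave 3.36, Ngp 2.98, Mpo 2.94 and S100a8 2.92, with adjusted p of 0.00502, 0.00303, 0.00526 and 0.00678 in the edgeR test. Ltf, Camp, Ngp and S100a9 turned from negative to positive, at 2.80, 2.73, 2.98 and 2.10. Prtn3 hardly moved, at 1.23. With all libraries kept, limma-voom called 9 of the 10 genes higher, where it called 11.2% of all genes higher, and gave 2.36 for Ltf, 2.74 for Camp, 2.65 for Ngp and 1.92 for S100a9. A fit with the replicate number as a block called Elane and Prtn3 higher, where 8.75% of all genes were, and gave those 4 genes 1.24, 1.39, 1.79 and 1.09 without a call. Without young replicates 1 and 5, which held Y-linked transcripts, 1 gene was called higher, where 5.82% of all genes were, and S100a8 and Prg2 turned negative, at -0.50 and -0.58.

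NR-treated aged against young mice asks how treated aged mice compare with young ones. It used the same young and NR-treated libraries as the comparisons above, so the 3 sets of values are not independent of each other. Of the 10 genes, 6 were called lower, Ltf, Camp, Ngp, S100a8, S100a9 and Prg2, where 1.91% of all genes were called lower. Their log2 fold changes ran from -5.81 for Ngp to -4.33 for S100a9, with adjusted p of 0.0119 and 0.0190 in the edgeR test. Mpo, Elane and Ly6c2 gave -2.95, -2.99 and -3.32 without passing, with adjusted p of 0.0667, 0.0984 and 0.0734 from edgeR. All 9 of these genes overlapped between the groups. Without young replicate 3 edgeR called 0 of the 10 lower, where 1.54% of all genes were called lower. At an unadjusted p under 0.05, 4 of the 10 were lower in that fit, as were 1329 of all 16154 genes. The smallest adjusted p among the 9 genes was then 0.109 from edgeR, for Ngp. With 1 library left out, the genes called lower ran from 0 to 9. They were 9 without young replicate 2 or 5 (2.84% and 1.67% of all genes), 2 without NR-treated replicate 1 or 2 (1.29% and 1.21%) and 1 without NR-treated replicate 4 (0.978%). Limma-voom and the replicate block called only Prtn3, as higher, in this comparison, where 2.14% and 2.15% of all genes were called higher.

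Prtn3 was the only gene of the set called higher in NR-treated aged than in young mice, where 2.56% of all genes were called higher. It differed by 0.73 on the log2 scale (SE 0.14, 1.65-fold, adjusted p = 0.00259, edgeR quasi-likelihood), with no overlap between the groups. The call was made in all 15 fits that left out 1 library.

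**Figure D3:**
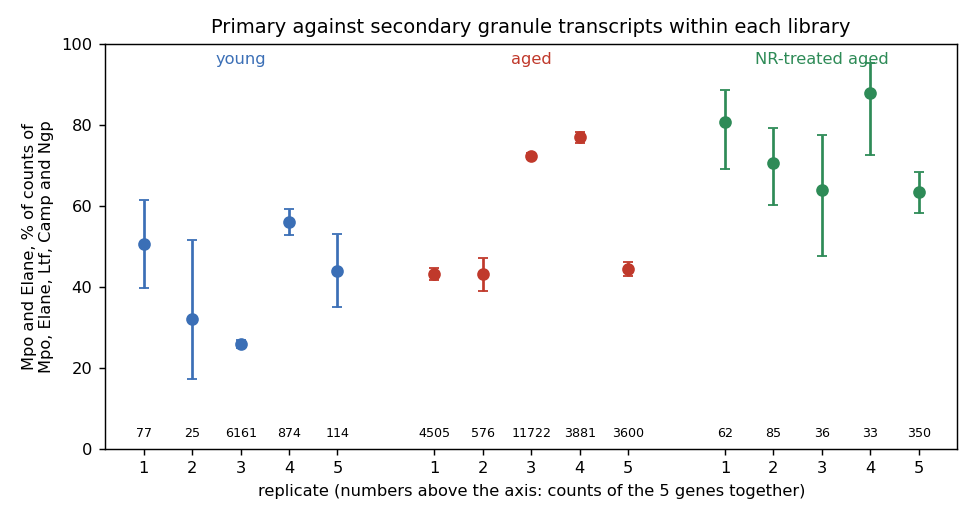
Share of Mpo and Elane counts among the counts of Mpo, Elane, Ltf, Camp and Ngp in each library, in percent, with 95% Wilson intervals; numbers above the axis are the summed counts. NR-treated libraries lie between 63.4% and 87.9% and young libraries between 25.9% and 56.1%, and the aged libraries fall at 43.1% to 44.4% or at 72.4% to 77.0%. Prtn3 is left out, a choice made after its values were seen.

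Primary and secondary granule genes were then compared within each library, which removes differences in library size. Prtn3 was left out of this share, a choice made after its values were seen, and the log2 scores below are given with and without it. Mpo and Elane together made 50.6%, 32%, 25.9%, 56.1% and 43.9% of the counts of Mpo, Elane, Ltf, Camp and Ngp in young replicates 1 to 5. The same share was 43.2%, 43.1%, 72.4%, 77.0% and 44.4% in aged and 80.6%, 70.6%, 63.9%, 87.9% and 63.4% in NR-treated libraries. Group means were 41.7% ± 12.6 in young, 56.0% ± 17.1 in aged and 73.3% ± 10.7 in NR-treated libraries (SD, n = 5 each). All NR-treated libraries were above all young libraries, while aged replicates 3 and 4 lay inside the NR-treated range. The NR-treated shares rested on 33 to 350 counts, and their intervals were wide: 72.7% to 95.2% for replicate 4 and 47.6% to 77.5% for replicate 3. Young replicates 1, 2 and 5 rested on 77, 25 and 114 counts, with intervals as wide as 17.2% to 51.6% in replicate 2. The interval of NR-treated replicate 3 overlapped those of young replicates 1 (39.7% to 61.5%) and 4 (52.8% to 59.3%), among others. The aged libraries had narrow intervals, such as 71.6% to 73.2% in replicate 3 and 41.7% to 44.6% in replicate 1, and separate mice differed by more than counting error in all groups.

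The library with the most granule transcripts had the smallest primary share. Young replicate 3 held 1594 counts of Mpo and Elane and 4567 of the secondary genes, a share of 25.9% (24.8% to 27.0%). In aged replicates 3 and 4 Mpo and Elane were the highest of the group while Camp, Ngp and Ltf were the lowest. Prg2 and Ly6c2 were also highest in those libraries, at 454 and 756 CPM and at 585 and 628 CPM. In the same replicates the other eosinophil, basophil and mast cell genes summed to 444 and 427 CPM against 138 to 149 CPM in the other aged libraries.

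On the log2 scale, with the mean of all 3 primary genes minus the mean of the 3 secondary genes, groups gave 1.32 ± 1.25 in young, 1.68 ± 0.91 in aged and 3.68 ± 0.73 in NR-treated libraries (SD, n = 5 each). The NR-treated mean was 2.00 above the aged mean and 2.36 above the young mean, and the aged mean was 0.36 above the young mean, a difference that became -0.18 without young replicate 3. The NR-treated minus aged difference was 1.17 with a prior count of 10, 1.14 with libraries thinned to the smallest total and 4.40 from summed counts, and the aged minus young difference was -1.04 from summed counts. Much of the difference from aged was Prtn3: without it, the NR-treated mean was 0.61 above the aged mean, less than the spread among aged libraries (SD 1.06). Without Prtn3 the NR-treated mean remained 1.75 above the young mean, and the aged mean was 1.13 above it. Of the primary counts, Prtn3 supplied 83.4% to 96.7% after NR, 41.9% to 58.9% in the aged group and 23.8% to 98.4% in the young group. No p is given for these scores, because the genes were chosen with results known.

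**Figure D4:**
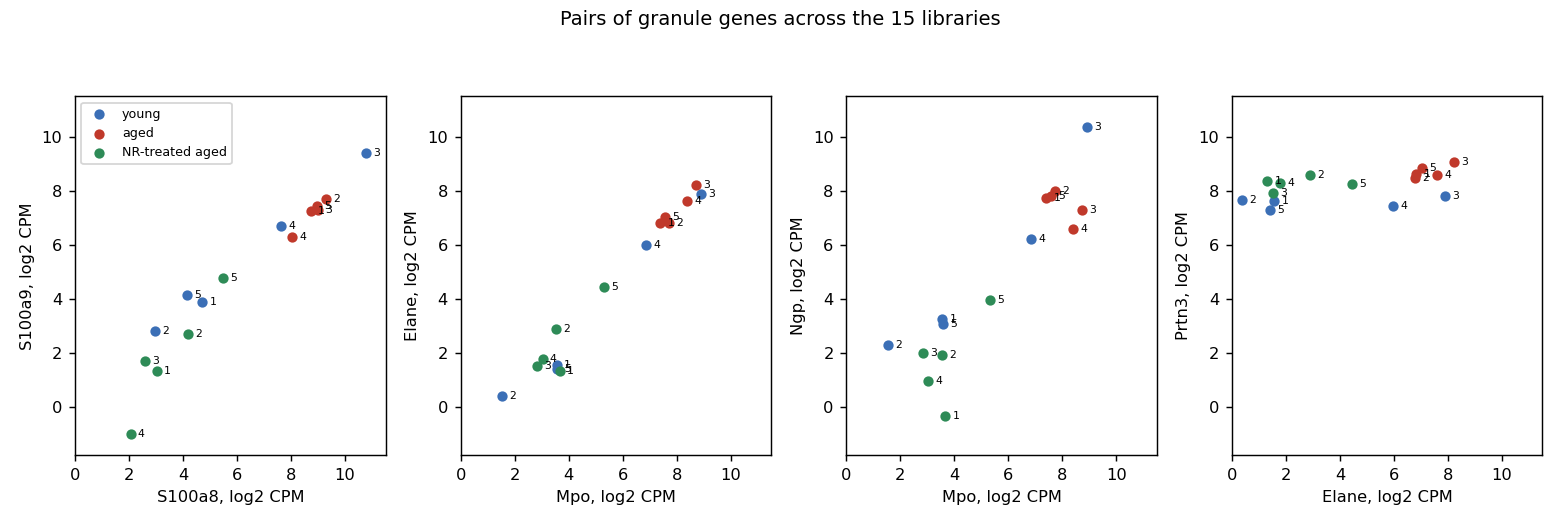
Pairs of genes across the 15 libraries, each axis in log2 CPM (prior count 2), points coloured by group and numbered by replicate. S100a8 with S100a9 and Mpo with Elane follow a line, Ngp in young replicate 3 lies above the course of the aged libraries, and Prtn3 stays in a narrow band over the whole range of Elane.

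Across the 15 libraries, 9 of the genes rose and fell together. The 36 pairs among them had Pearson correlations of 0.874 to 0.986 in log2 CPM, with a median of 0.948. The closest pair was Mpo and Elane (0.986), and S100a8 with Camp (0.983) and Elane with Prg2 (0.983) were nearly as close. The least alike were Elane and S100a9 (0.874). Prtn3 correlated with the other 9 at 0.190 to 0.518, with a median of 0.350, and its highest value was with its neighbour Elane. The points share library depth and group, so these correlations are descriptions of 15 libraries without a test.

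Likeness was sought among 10059 other genes whose mean level reached 5 CPM, with predicted genes, clones and pseudogenes left out by name. The 5 most like the mean of the 3 primary genes, Prtn3 included, were Ctsg (r = 0.979), Chil3 (0.973), Lgals3 (0.967), Slpi (0.967) and Ifitm6 (0.959) over the 15 libraries. Ctsg encodes cathepsin G, another azurophil protease. The 5 most like the secondary genes were Lcn2 (0.969), Wfdc21 (0.966), Chil3 (0.962), Clec12a (0.960) and Fcnb (0.958). Lcn2 encodes lipocalin 2, a specific granule protein. Prtn3 alone, a choice made after its values were seen, was most like Mmrn1 (0.959), Tmem56 (0.956), Klhl4 (0.953), Gpx3 (0.949) and Gng11 (0.947). None of the 5 genes nearest Prtn3 was among the other primary, secondary and tertiary granule genes listed below.

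**Figure D5:**
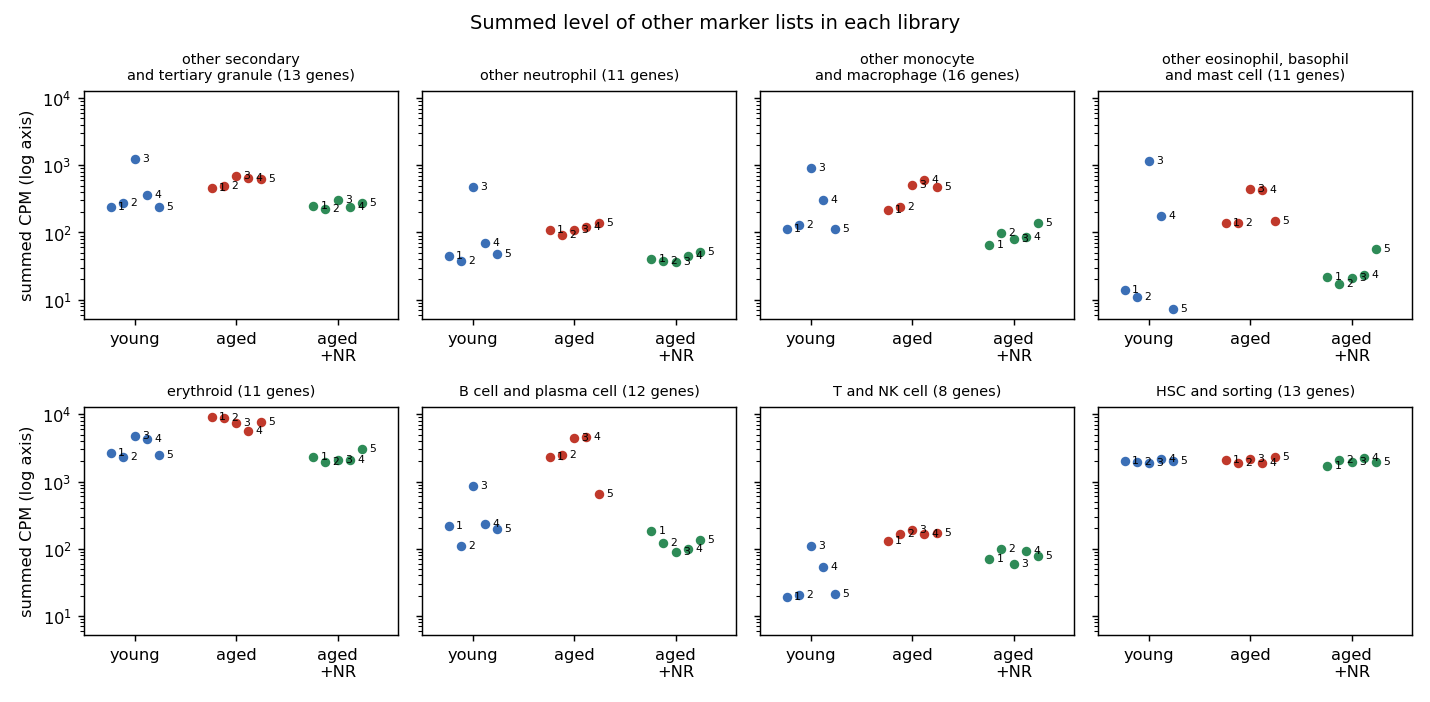
Summed CPM of 8 other marker lists in each library on a log axis, points numbered by replicate. Every list but HSC and sorting is lower in all 5 NR-treated libraries than in all 5 aged libraries, young replicate 3 is the highest young library in those lists, and the 13 HSC and sorting genes stay between 1703 and 2289 CPM.

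Some other granule genes of the pathway moved with the set in NR-treated against aged mice, and others did not. Of the other primary granule genes 6 of 10 were called lower (4.18% of all genes were called lower), led by Ctsg at -4.10, Cst7 at -2.66 and Ms4a3 at -2.63 on the log2 scale (adjusted p = 0.00680, 0.0161 and 0.00866, edgeR). Of the other secondary and tertiary granule genes 6 of 13 were called lower, led by Lcn2 at -5.58, Fcnb at -5.29 and Chil3 at -4.93. Of the other neutrophil genes 5 of 11 were called lower. Those with a mean of at least 5 CPM were led by Wfdc21, Ifitm6 and Mcemp1. Lrg1, below that level, changed by -5.14. The other 4, 7 and 6 genes of these 3 lists were not called, with log2 fold changes from -5.86 to 0.59. The median log2 fold changes of these 3 lists were -1.24, -3.66 and -3.44, against 0.02 over all genes. In aged against young mice 1 of 10, 1 of 13 and 0 of 11 of these genes were called higher on all libraries by edgeR (0 of the 11 also at an unadjusted p under 0.05), where 9.68% of all genes were, and 5, 9 and 4 without young replicate 3, where 9.27% were. Of the 10 granulocyte regulators, 3 were called lower after NR and 7 were not called, where 4.18% of all genes were called lower. The 3 were Irf8 at -2.68, Klf4 at -1.93 and Cebpe. Irf8 and Klf4 were also counted among the monocyte and macrophage genes below. The median log2 fold change of the 10 regulators was -0.08, close to that of all genes. Cebpe, which encodes the C/EBP factor needed for secondary granules, was chosen after its values were seen and fell below the 5 CPM limit. It held 0 counts in all 5 NR-treated libraries, which allows up to 0.834 to 1.21 CPM per library without TMM scaling. Its level was 0 to 4.62 CPM in aged and 0.351 to 8.53 CPM in young libraries.

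Markers of other cell types moved with the 10 genes in NR-treated against aged mice, and their part in the result was not tested. Over all genes 4.18% were called lower in this comparison, the share to set beside each count below. Of the other monocyte and macrophage genes 11 of 16 were called lower. Their summed level ran from 219 to 615 CPM in aged and from 66.1 to 138 CPM in NR-treated libraries. Of the other eosinophil, basophil and mast cell genes 5 of 11 were called lower, with sums of 138 to 444 CPM in aged and 17.0 to 57.7 CPM in NR-treated libraries. Of the erythroid genes 9 of 11 were lower (5583 to 9004 CPM against 1959 to 3081 CPM). Most of the NR-treated erythroid sum was Car2, which was not called. Car2 was at 2209 to 3218 CPM in aged and 1839 to 2494 CPM in NR-treated libraries. Hbb-bs was at 1868 to 3875 CPM in aged and 21.2 to 288 CPM in NR-treated libraries. Of the B cell and plasma cell genes 8 of 12 were lower (658 to 4538 CPM against 88.7 to 181 CPM), and of the T and NK cell genes 2 of 8. Most of the T and NK sum was Klrb1c, at 106 to 165 CPM in aged and 50.9 to 95.7 CPM in NR-treated libraries, and the other 7 genes summed to 22.5 to 51.2 CPM in aged and 4.47 to 17.97 CPM in NR-treated libraries. Young libraries gave 112 to 904 CPM for the monocyte list, 7.28 to 1166 for the eosinophil, basophil and mast cell list, 2323 to 4686 for the erythroid list, 109.7 to 858 for the B cell list and 9.44 to 93.9 for the T and NK cell list without Klrb1c. Young replicate 3 was the highest young library in each of these sums.

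The sort used antibodies against several of these products. Cd48, the antigen excluded from the HSC gate, was at 24.2 ± 13.4 CPM in aged, 3.50 ± 1.78 in NR-treated and 12.2 ± 13.3 in young libraries (SD, n = 5 each) and fell by 2.83 on the log2 scale after NR (SE 0.56, adjusted p = 0.00776, edgeR). Slamf1 fell by 0.51, from 76.5 ± 9.81 to 53.7 ± 6.02 CPM (adjusted p = 0.0288, edgeR). The other 11 HSC and sorting genes were not called in that comparison. Itgam, which encodes the Mac-1 alpha chain, was at 6.36 ± 2.43 CPM in aged, 7.23 ± 5.58 in NR-treated and 13.8 ± 13.02 in young libraries. Ly6g, a mature neutrophil antigen bound by the Gr-1 antibody, ran from 1.01 to 3.89 CPM in aged, 0 to 0.298 in NR-treated and 0 to 7.63 in young libraries.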

How the data were processed

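RNA was counted in 15 HSC libraries, 5 per group and 1 mouse each. Per the labels and the study's methods, the authors aligned reads to GRCm38 with STAR 2.4.2a, removed duplicates by unique molecular identifier and deposited raw counts per gene from featureCounts after the low-count filter. Total counts per library ran from 764119 to 13318989. A low depth widens the error of rare transcripts, and intervals cover counting error only.

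The members and the gene lists were chosen with earlier results of these data known. Groups were taken from the labels. The counts of all 16154 genes were fitted with edgeR 4.0.16 (R 4.3.3): TMM library sizes, group as the only term, the quasi-likelihood test on all 15 libraries and Benjamini-Hochberg adjustment over all genes, with calls at an adjusted p under 0.05. Levels are TMM-scaled CPM, and log2 CPM used a prior count of 2. The code was tested on simulated data. The 10 members were named with their values. Of every other list, at most 3 genes per comparison that passed the test with a mean of at least 5 CPM and the largest fold change were named. Some genes outside that rule, such as Lrg1, Car2 and Cebpe, were also named. Primary and secondary genes were compared by shares of counts without Prtn3, with 95% Wilson intervals, and by mean log2 CPM. Promoter windows were taken from RefSeq. Alternatives were the likelihood ratio test, DESeq2 1.42.0, limma-voom (limma 3.58.1), other library sizes, a mean of at least 10 counts, prior counts of 0.5 and 10, libraries thinned to the smallest total, a replicate block, 2-group fits and libraries left out. No pair of libraries in a group agreed within sampling noise (chi-square per degree of freedom 3.02 to 16.8).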

Additional observations from a re-analysis of the deposited data

Results flagged for a closer look

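Each gene's CPM was examined in each group for a library far from the other 4, which is a gap of more than 0.71 of the group's whole range. Of 30 groups of values 15 were flagged. The limit flags about 1 in 20 only for normally distributed values. The CPM of these genes were skewed, so that rate cannot be set against the 15. The flags fell on 2 libraries: 8 on young replicate 3, 7 on NR-treated replicate 5 and none on an aged library. Young replicate 3 was far above the other young libraries for Mpo (481 CPM), Elane (235 CPM), Ltf (222 CPM), Camp (520.0 CPM), Ngp (1309 CPM), S100a8 (1762 CPM), S100a9 (674 CPM) and Prg2 (1447 CPM). NR-treated replicate 5 was far above the other NR-treated libraries for Mpo (39.2 CPM), Elane (21.2 CPM), Camp (17.4 CPM), Ngp (14.98 CPM), S100a9 (27.0 CPM), Prg2 (41.4 CPM) and Ly6c2 (54.2 CPM). Since the genes move together, these flags are not separate events. Prtn3 was flagged in no group.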

How the results depend on the processing

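The direction of all 10 genes in NR-treated against aged mice and in NR-treated against young mice was the same in 25 of 25 alternatives. With 1 library left out, the genes called lower ran from 4 to 10 in NR-treated against aged mice. Of all genes 1.54% to 5.03% were called lower in those fits. The genes called higher ran from 1 to 10 in aged against young mice, and 6.43% to 10.9% of all genes were called higher. In NR-treated against young mice the genes called ran from 1 to 10. Of all genes 1.82% to 2.87% were called higher there and 0.978% to 2.84% lower. Limma-voom called 9 genes higher in aged against young (11.2% of all genes) and 1 higher in NR-treated against young mice (2.14%). Replicate numbers were not treated as pairs (mean correlation of same-numbered deviations 0.00211), and the replicate block called 2 higher, 9 lower and 1 higher in aged against young, NR-treated against aged and NR-treated against young mice (8.75%, 3.42% and 2.15% of all genes). DESeq2 gave no adjusted p for Ltf, Camp and Ngp, the 3 secondary granule genes, and so made no call on that class. It called the other 7 genes lower in NR-treated against aged mice, where 5.47% of all genes were called lower. In aged against young mice 6 genes reversed. Limma-voom gave 2.36 for Ltf, 2.74 for Camp, 2.65 for Ngp and 1.92 for S100a9, and the replicate block 1.24, 1.39, 1.79 and 1.09. Without young replicates 1 and 5, S100a8 gave -0.50 and Prg2 -0.58. Leaving out 1 library gave ranges of -1.04 to 2.80 (Ltf), -0.43 to 2.73 (Camp), -0.89 to 2.98 (Ngp), -0.40 to 2.10 (S100a9), -0.11 to 2.92 (S100a8) and -0.29 to 2.81 (Prg2). The cause was not tested. The primary minus secondary difference, NR-treated against aged, was 1.17 with a prior count of 10, 4.40 from summed counts, 1.14 after thinning and 0.61 without Prtn3, the last chosen after seeing the data. In aged against young mice it was -1.04 from summed counts and ran from -0.18 (without young replicate 3) to 0.60 with 1 library left out. Few counts limit the secondary genes after NR and in young replicates 1, 2 and 5.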
